A study of Sparus aurata with 9 samples.

Results

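This account describes liver RNA of gilthead sea bream (Sparus aurata) that had been kept in water with gold nanoparticles (AuNP) at either of 2 concentrations, joined as 1 exposed group, against liver RNA of unexposed fish. The members are the array sequences that could be compared in this way. A probe was kept where it was well above background, by the scanner software's own flag, on all 3 control arrays or on all 6 exposed arrays. This kept 9021 of 28793 probes, which represent 5065 of the 15156 sequences on the array. Of the sequences kept, 2780 were assembled contigs, of 6057 on the array, and 2285 were single clones, of 9099.

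The exposed group held 3 pools at 0.5 µg/L and 3 pools at 50 µg/L, and the control group held 3 pools from water without particles. All fish were juveniles of 50 g by the labels, in artificial seawater for 24 h, and each pool combined liver RNA of 3 fish. Each condition had its own duplicate tanks, so tank and exposure cannot be told apart, and nothing says that the pools came from separate exposures. The p-values therefore measure only the spread between pools. The question was whether any exposure to the particles, irrespective of concentration, moved liver transcripts away from unexposed fish.

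The liver is the main organ of intermediary metabolism, of plasma protein production and of the handling of foreign substances in fish, and particles taken up from water can reach it by the blood. In sea bream, exocrine pancreas is found within the liver. A transcript response to a metal or a particle in this organ is usually sought among metal-binding, antioxidant, heat shock, detoxifying and acute phase genes. None of these could be looked up: the sequences carry clone and contig identifiers, and 0 of them matched the RefSeq gene table. For the same reason the liver label could not be checked against marker genes, and no role is given for any sequence below.

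No sequence passed the test for a change with exposure. With the adjusted p held under 0.05, limma called 0 of 5065 sequences (0%), the lowest value being 0.73. An unadjusted p under 0.05 was reached by 190 sequences (3.75%), fewer than the 253.2 that an even spread of p-values would put there. Of these, 55 (1.09%) were higher and 135 (2.67%) were lower in the exposed pools. The log2 difference, exposed minus control, had a median of -0.06, with 5% of sequences below -0.50 and 5% above 0.31. Differences of at least 2-fold were measured for 7 sequences higher and 41 lower in the exposed pools, but 34 of the 41 had a probe kept through the controls only. On probes well above background on all 9 arrays there were 5 higher and 8 lower. The 0 calls did not hold without control pool 2, where 1 sequence, lower in the exposed pools, was called (limma adjusted p = 0.0384). In that run the probes were kept anew on the remaining arrays and 5627 sequences were tested, so the set differed from the 5065. In bulk tissue, fewer cells of a type and less RNA per cell cannot be told apart.

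**Figure D1:**
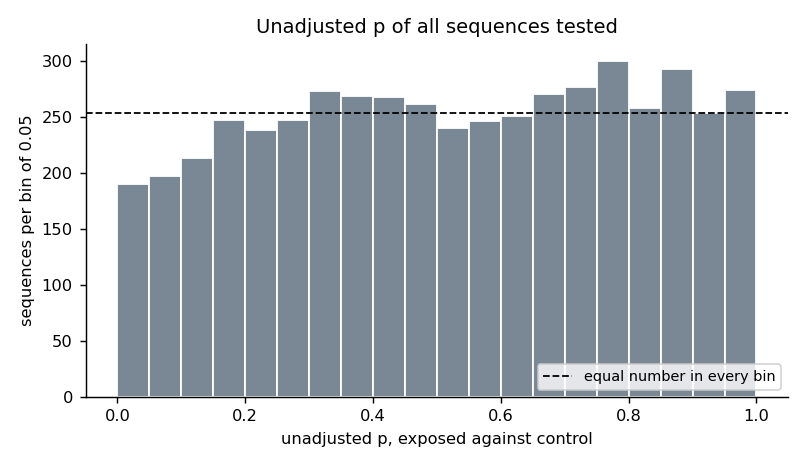
The bars count the 5065 sequences by unadjusted p (x axis) in bins 0.05 wide, and the dashed line marks an equal number in every bin, 253.2. The first bin, with 190 sequences, is the lowest of all bins, and no excess of small p-values is seen.

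The same comparison was made with both concentrations kept apart in the fit and their mean set against the controls, so that the difference between concentrations did not enter the error. Limma again called 0 sequences, with a smallest adjusted p of 0.451. Here 253 sequences (5%) had an unadjusted p under 0.05, of which 71 were higher and 182 lower in the exposed pools. In that fit, 274 of 5065 sequences had an unadjusted p under 0.05 at 0.5 µg/L and 669 at 50 µg/L. Both were set against the same 3 control pools. An even spread of p-values would put 253.2 there, so the count at 50 µg/L was above it. Sequences share the same arrays, so that number is only a rough guide. With the pools at 50 µg/L alone against controls, 169 were higher and 449 lower at such a p. Of the probes, 2213 were kept through controls only and 49 through exposed pools only, which favours lower values. The share of this in the count was not tested. Limma called 0 sequences at either concentration in the fit of all 3 groups. With the pools at 50 µg/L alone against controls it called 1, higher in the exposed pools (limma adjusted p = 0.0471).

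The precision of these arrays set what could be seen. The median standard error of a log2 difference was 0.22, and the median 95% interval reached 0.49 to either side. For 4287 sequences (84.6%) the 95% interval lay wholly within a 2-fold change in either direction, and for 1898 (37.5%) it lay within 1.5-fold. The other 778 sequences have intervals that reach a 2-fold change, so a change of that size is within their error. The intervals are not adjusted for the number of sequences. A sequence with the median standard error, changing alone, would have needed a log2 difference of 1.68 (3.21-fold) to be called.

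Followed through every pool were 2 sequences higher and 2 lower in the exposed pools. They were taken in order of p among sequences whose 6 exposed pools all lay on 1 side of all 3 controls and whose kept probes all had the same sign, those with at least 2 kept probes first. Levels are log2 signals relative to the 75th percentile of each array. They were picked for this pattern, so their values are a description.

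The clone cDN02P0003F20.F.ab1 headed the higher sequences. Its level was 1.68, 1.62 and 2.24 in the pools at 0.5 µg/L, 1.57, 1.67 and 1.5 at 50 µg/L, and 1.03, 1.27 and 1.02 in the controls. Every exposed pool lay above every control, and pool 3 at 0.5 µg/L stood well above the other exposed pools. The exposed pools averaged 1.71 ± 0.27 (SD, n = 6) and the controls 1.11 ± 0.14 (SD, n = 3). The log2 difference was 0.61 ± 0.19 (SE), with a 95% interval from 0.19 to 1.02 and a limma adjusted p of 1. It was 0.50 without pool 3 at 0.5 µg/L. All 3 of its probes were well above background on every array, and their log2 differences were 0.36, 0.92 and 0.54.

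Contig778 came next among the higher sequences. Its level was 2.12, 2.09 and 2.23 at 0.5 µg/L, 2.39, 2.16 and 2.31 at 50 µg/L, and 1.95, 1.64 and 1.76 in the controls. The groups were separated by 0.14, and the exposed pools lay close together at 2.22 ± 0.11 (SD, n = 6), against 1.78 ± 0.16 (SD, n = 3) in controls. The log2 difference of 0.43 ± 0.15 (SE) had a limma adjusted p of 1. Its 3 probes, each measured on all 9 arrays, differed little from each other, at 0.38, 0.49 and 0.44.

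Contig2310 headed the lower sequences. It was kept through the controls only. Of its 2 kept probes, 1 was well above background on 1 exposed array and the other on 0 exposed arrays. Its exposed levels are therefore mostly signals not well above background. It stood at -1.44, -1.45 and -0.94 in the pools at 0.5 µg/L, at -1.40, -1.71 and -2.02 in those at 50 µg/L, and at -0.39, -0.51 and -0.56 in the controls. The 3 controls lay within a narrow band and all exposed pools lay below it. The log2 difference of these signals was -1.01, and with another background correction (normexp, offset 50) it was -0.36, so its size is not settled (limma adjusted p = 0.73).

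The clone cDN09P0006E23.F.ab1 was measured by all 3 of its probes on all 9 arrays. Its level was 1.43, 1.51 and 2.16 at 0.5 µg/L, 0.70, 1.78 and 1.29 at 50 µg/L, and 3.77, 2.38 and 2.80 in the controls. The lowest control lay 0.21 above the highest exposed pool, and control pool 1 lay far above the others. The exposed pools averaged 1.48 ± 0.49 (SD, n = 6) and the controls 2.98 ± 0.71 (SD, n = 3). The log2 difference was -1.50 ± 0.34 (SE), with a 95% interval from -2.25 to -0.75 and a limma adjusted p of 0.73. Its probes gave log2 differences of -1.53, -1.38 and -1.60. Without control pool 1 the difference was -1.11.

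**Figure D2:**
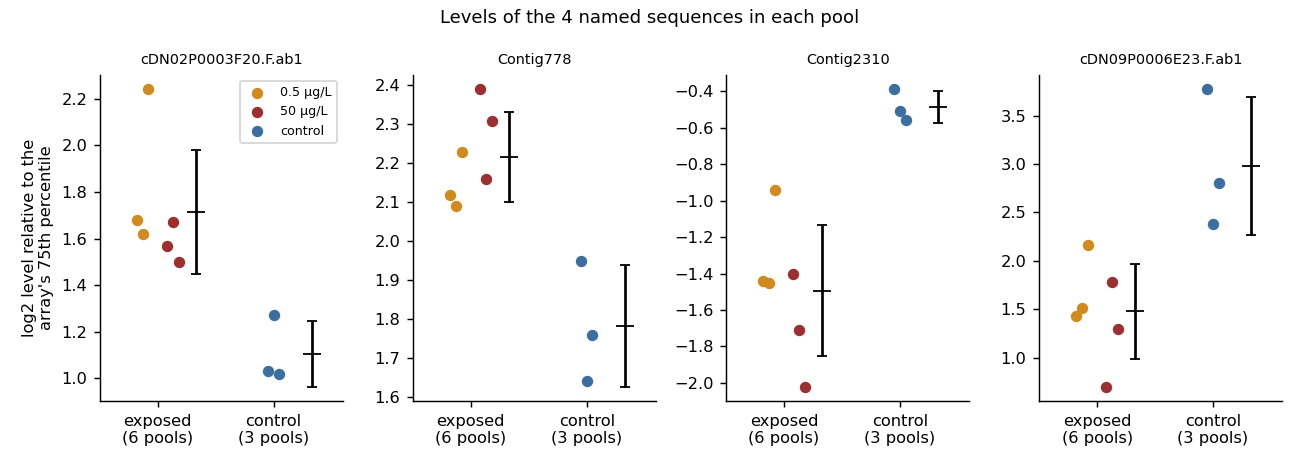
Each panel shows a named sequence, with its log2 level relative to the 75th percentile of the array on the y axis and the exposed and control pools on the x axis (orange, 0.5 µg/L; red, 50 µg/L; blue, control). Points are pools, and black bars give the mean and SD of the 6 exposed and the 3 control pools. The exposed pools lie above the controls for cDN02P0003F20.F.ab1 and Contig778 and below them for Contig2310 and cDN09P0006E23.F.ab1, with no overlap.

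For none of these 4 did the concentrations differ from each other by limma. The log2 difference between 50 and 0.5 µg/L was -0.27 for cDN02P0003F20.F.ab1 (adjusted p = 0.478) and 0.14 for Contig778 (adjusted p = 0.651). It was -0.43 for Contig2310, on signals mostly not well above background (adjusted p = 0.285), and -0.44 for cDN09P0006E23.F.ab1 (adjusted p = 0.535). These p-values do not show that both concentrations acted alike.

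A difference of at least 2-fold did not by itself mean separated groups. Of the 7 sequences at least 2-fold higher in the exposed pools, 0 had groups that did not overlap, and of the 41 at least 2-fold lower, 12 did, beside 1.78% of all sequences. Large differences are more often separated by construction, and 7 of the 41 had all kept probes measured on 9 arrays. In 8 of the 41, control pool 1 was the highest of all 9 pools, and in the rest another pool was. The sequence with the largest positive log2 difference, 3.26, had 1 probe, kept through the exposed arrays only. It stood at 2.70, 3.58 and 1.52 in the pools at 0.5 µg/L, at 4.23, 1.09 and 3.02 in those at 50 µg/L, and at 3.49, -2.41 and -2.78 in the controls. It was well above background on all 6 exposed arrays and on 1 control array. The size of the difference therefore rests on control signals not well above background. Control pool 1 lay among the exposed pools (limma adjusted p = 1).

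Across all 5065 sequences, the 6 exposed pools lay wholly above the 3 controls for 27 (0.533%) and wholly below them for 63 (1.24%). If the labels made no difference, each of these patterns would be 1 of 84 equally likely assignments, a share of 0.0119. Sequences share the same arrays, so that share is only a rough guide. The 27 higher ones had a median log2 difference of 0.41, from 0.13 to 0.94, and the 63 lower ones a median of -0.62, from -1.89 to -0.16. Of the 63, 38 had a probe kept through the controls only, which favours low exposed values. Among the 3263 sequences whose kept probes were all measured on 9 arrays, 19 lay wholly above and 25 wholly below. The groups were mostly close even there: the gap between the nearest pools of both groups had a median of 0.08 and was over 0.5 in 2 sequences. Of the 90 sequences, 65 also had an unadjusted p under 0.05. A further 125 had such a p with overlapping groups. Leaving out 1 pool raised the 90 in every case. The count was 123 without pool 3 of the higher concentration and as many as 390 without control pool 1. Fewer pools separate more easily. Probes were also kept anew each time, which gave 5627 sequences without control pool 2, and these parts were not tested apart.

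Several probes of 1 sequence lie on separate spots of the array. Of the 2240 sequences with 2 or more kept probes, 1474 (65.8%) had all probes on the same side of 0. Among the 61 of them with an unadjusted p under 0.05, 59 did. These were chosen on the mean of the same probes, which favours such a result. Sequences with 1 kept probe had an unadjusted p under 0.05 in 129 of 2825 cases (4.57%), against 2.72% of those with several.

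The excess of lower over higher sequences moved with how probes were kept. There were 2213 probes kept through the controls only and 49 kept through the exposed pools only. The groups differ in their number of arrays. On average fewer probes were detected per array in the exposed pools, though not beyond the spread of pools. What each of these contributed was not tested. The other 6759 were well above background on all 9 arrays. Among the 3263 sequences whose kept probes were all measured on 9 arrays, 39 were higher and 38 lower at an unadjusted p under 0.05, with a median log2 difference of -0.03. Among the 1753 with a probe kept through controls only, 7 were higher and 97 lower, with a median of -0.14. A probe kept through the controls only had to fall below that detection limit on at least 1 exposed array, so this second set gives no support for a fall.

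A fit of only the probes measured on all 9 arrays held 3771 sequences and called 0, with a smallest limma adjusted p of 0.994. At an unadjusted p under 0.05 it had 45 sequences higher (1.19%) and 50 lower (1.33%) in the exposed pools. In that set the exposed pools lay wholly above the controls for 21 sequences (0.557%) and wholly below for 32 (0.849%). The 95% interval lay within a 2-fold change for 89.8%.

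**Figure D3:**
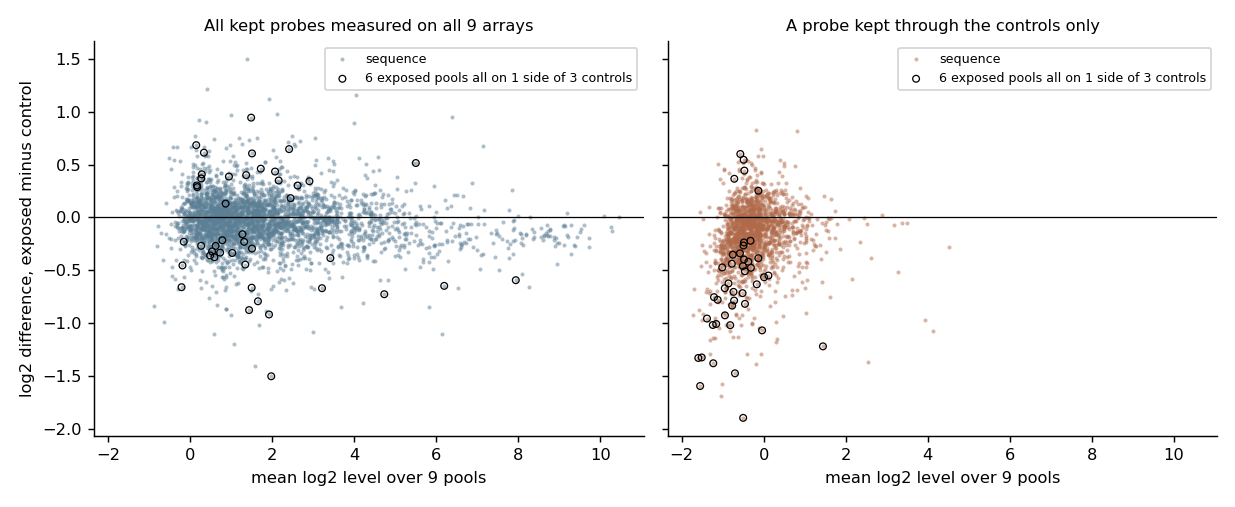
Each point is a sequence, with its mean log2 level over the 9 pools on the x axis and the log2 difference, exposed minus control, on the y axis. Left are the 3263 sequences whose kept probes were all measured on 9 arrays, right the 1753 with a probe kept through the controls only, and the remaining 49 are not drawn. Black rings mark sequences whose exposed pools all lie on 1 side of the controls: they lie on both sides of 0 on the left (19 above, 25 below) and mostly below 0 at dim levels on the right (5 above, 38 below).

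The split was also uneven over brightness. In the dimmest 1267 sequences the median log2 difference was -0.15, and 9 were higher and 91 lower in the exposed pools at an unadjusted p under 0.05. In 3 brighter sets of 1266 sequences each, from dim to bright, the medians were -0.03, -0.02 and -0.06, and the counts of higher and lower sequences were 18 and 13, 17 and 16, and 11 and 15. The median difference in the dimmest set was -0.10 for the pools at 0.5 µg/L and -0.22 for those at 50 µg/L. On probes well above background on all 9 arrays, the dimmest 943 sequences held 18 higher and 12 lower. Their median level was 0.26, against -0.50 in the dimmest 1267 sequences. That set is brighter, so it cannot show whether the excess of lower sequences among dim ones holds.

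The split of directions also moved with the processing. As reported, 28.9% of sequences with an unadjusted p under 0.05 were higher in the exposed pools. Quantile normalization, with 62 higher and 125 lower, and median centring, with 49 and 108, kept an excess of lower sequences. So did normexp background correction, with 14 and 73, and a fit of only the 2240 sequences with 2 or more kept probes, with 13 and 60. Scaled to the added spike-in RNA, 41 were higher and 43 lower (48.8% higher), and the median log2 difference of all sequences was 0.10. With the authors' deposited values, which carry no scaling between arrays, 81 were higher and 48 lower. With those values less each array's 75th percentile, 48 were higher and 133 lower. With no filter on dim probes, a change of the probes tested rather than of the scaling, 648 of 15156 were higher and 157 lower. The median log2 difference there was 0.19. Of the 28793 probes in that setting, 12451 were well above background on 0 of the 9 arrays. Their differences are between signals not well above background, and these counts give no direction of transcript level. Limma called 0 sequences in each of these settings, so no direction is claimed for liver transcripts as a whole.

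**Figure D4:**
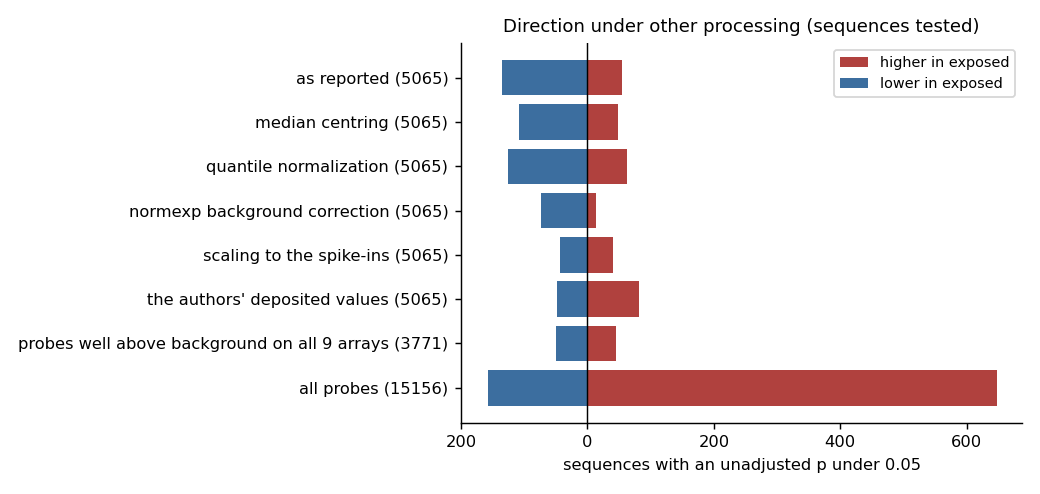
Bars count sequences with an unadjusted p under 0.05 (x axis), red to the right for those higher and blue to the left for those lower in the exposed pools, for 8 ways of processing (y axis, with the number of sequences tested). As reported there were 55 higher and 135 lower, and with probes measured on all 9 arrays 45 and 50. With all probes, those not well above background on any array included, there were 648 and 157.

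Taking both concentrations as 1 group joined pools that were not alike. The root mean square SD over the 5065 sequences was 0.44 among the 6 exposed pools and 0.35 among the 3 controls. It was 0.38 within the pools at 0.5 µg/L and 0.42 within those at 50 µg/L, and it was 0.42 among the exposed pools without pool 2 at 50 µg/L. Arrays correlated at a median r of 0.952 among the 15 pairs of exposed pools, 0.954 among the 18 pairs of an exposed pool with a control and 0.961 among the 3 pairs of controls. The lowest median was that of the 9 pairs across the concentrations, at 0.937, while pools at 0.5 µg/L correlated with controls at 0.963. That low median was not shared by all cross pairs. Those with pool 2 of the higher concentration or pool 1 of the lower one had r from 0.929 to 0.937. The remaining cross pairs had r from 0.951 to 0.955. Within the higher concentration, pool 2 correlated at 0.935 with pool 1 and at 0.952 with pool 3. These correlations are across sequences of shared arrays and are a description.

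On the same sequences, limma called 34 (0.671%) between 50 and 0.5 µg/L, of which 32 rose and 2 fell at the higher concentration. Their median absolute log2 difference between concentrations was 1.33. Against controls, the mean of all exposed pools had a median absolute log2 difference of 0.12 for these 34, beside 0.15 for all sequences, and ranged from -0.42 to 0.53. In the fit with concentrations kept apart, 2 of the 34 had an unadjusted p under 0.05 for that mean, beside 5% of all sequences. For all 34 the control mean lay between the means of both concentrations. The exposed pools could then not lie wholly on 1 side of the controls. That 0 of the 34 did so, beside 1.78% of all sequences, is therefore no separate result.

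Each of the 3 slides held 1 control pool and 1 pool of each concentration, so the difference could be taken within a slide. Its median over all sequences was -0.05, -0.10 and -0.05 on slides 1, 2 and 3. The within-slide difference of cDN09P0006E23.F.ab1 was -2.70, -0.73 and -1.07. For Contig2310 it was -1.03, -1.07 and -0.92, again on exposed signals mostly not well above background. The values were 0.60, 0.37 and 0.85 for cDN02P0003F20.F.ab1 and 0.30, 0.49 and 0.51 for Contig778. With the replicate number, which is also the slide, as a block, limma called 0 sequences (smallest adjusted p = 0.508). The control, 0.5 and 50 µg/L arrays kept the same 3 positions throughout, so a place on the slide and an exposure cannot be told apart.

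Detection was counted without scaling between arrays. It depends on each array, which detected from 7473 (pool 3 at 0.5 µg/L) to 13557 probes (control pool 1). Of 28793 probes, 16 (0.0556%), from 16 sequences, were well above background on all 3 control arrays and on 0 exposed arrays, and 0 were so on all 6 exposed arrays and on 0 control arrays. The groups differ in size, so these counts are not set against each other. The 16 probes were dim, with a median log2 level of -0.62 in controls beside 1.03 for all kept probes. Their log2 differences ran from -1.33 to -0.30. The probes were chosen for this pattern, so their differences are a description. Leaving out a pool relaxes the rule, so the count can only stay or rise. Without control pool 2 there were 108 such probes, without pool 1 at 0.5 µg/L 101, and without control pool 3 66. Without control pool 1 there were 21, and without pool 3 at 0.5 µg/L 16. Leaving out pool 2 of the lower concentration gave 26, and pool 2 of the higher 27. The 16 sequences had 22 other probes on the array, of which 8 were well above background on all 3 controls. All 8 were so on at least 1 exposed array too. That was fixed in advance, as the 16 are all the probes of this kind and came from 16 sequences. It therefore says nothing on whether the other probes also lay lower in the exposed pools.

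The 2 probes of this kind lying furthest below the controls came from the clone cDN06P0003P22.F.ab1 and from Contig2872. The clone's probe stood at -2.02, -1.36 and -2.43 in the pools at 0.5 µg/L, at -1.78, -1.86 and -2.77 in those at 50 µg/L, and at -0.93, -0.44 and -0.76 in the controls. The measured signal was 2.51-fold lower in exposed pools (limma adjusted p = 0.773). The exposed signals were not well above background, so the size of the difference is not settled. The clone's other probes had log2 differences of -1.23 and -1.04, with 2 control arrays and 0 exposed arrays well above background for each. The probe of Contig2872 stood at -1.49, -1.72 and -2.37 in the pools at 0.5 µg/L, at -2.11, -1.54 and -2.48 in those at 50 µg/L, and at -0.66, -0.61 and -0.61 in the controls. It measured 2.50-fold lower (limma adjusted p = 0.74), a size likewise not settled. Its controls lay within 0.05 of each other, and its signal was well above background on 0 exposed arrays. The other probes of this contig gave -0.17 and -1.09.

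The number of detected probes did not differ between the groups beyond the spread of pools, and the groups overlapped. The pools at 0.5 µg/L had 11962, 9598 and 7473 probes well above background, those at 50 µg/L had 9382, 10202 and 8443, and the controls had 13557, 9584 and 10252. The mean was 9510 ± 1536 in exposed pools (SD, n = 6) and 11131 ± 2127 in controls (SD, n = 3), with an exact two-sided permutation p of 0.202 (0.404 adjusted over 2 such tests). The smallest p that 84 assignments of the labels allow is 0.0119. The mean difference was -1621 probes, and -408 without control pool 1.

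Signal relative to the spike-in RNA, taken as the 75th percentile of log2 signals less the mean over 6 spike-in probes, was -5.16 ± 0.35 in exposed pools (SD, n = 6) and -5.32 ± 0.46 in controls (SD, n = 3). An exact permutation test of the difference of 0.16, two-sided, gave p = 0.583 (0.583 adjusted). Pools at 50 µg/L, at -4.96 to -4.79, lay above those at 0.5 µg/L, at -5.65 to -5.34, and control pool 1, at -4.80, lay among the pools at 50 µg/L. Without control pool 1, limma called 0 sequences and 233 had an unadjusted p under 0.05.

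**Figure D5:**
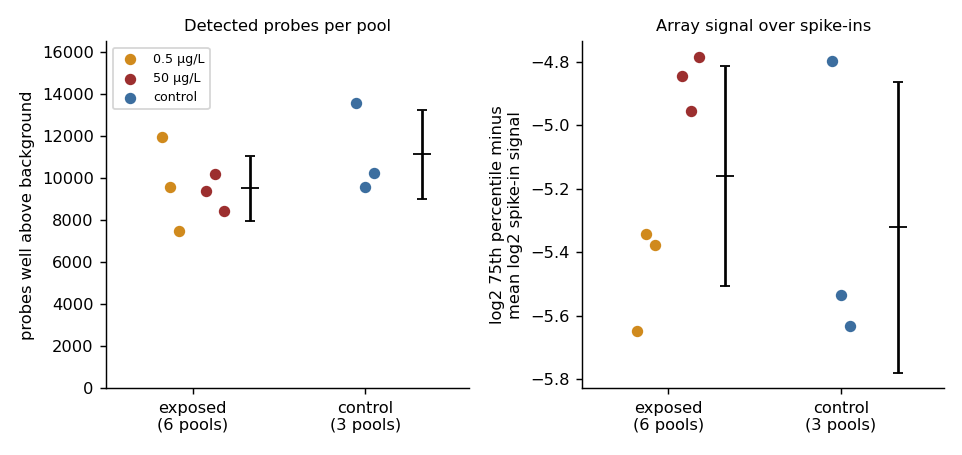
Left, probes well above background per pool (y axis, count). Right, the 75th percentile of log2 signals less the mean log2 spike-in signal (y axis), for exposed and control pools (x axis; orange, 0.5 µg/L; red, 50 µg/L; blue, control). Points are pools and black bars the mean and SD of 6 exposed and 3 control pools. Control pool 1, at 13557 probes and -4.80, is the highest control in both panels, and the groups overlap in both.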

How the data were processed

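Liver RNA of 9 pools was hybridised to one-colour (Cy3) Agilent arrays with spike-in RNA, per the labels' protocols. The scanner images were quantified by Feature Extraction 10.7.3.1 (Agilent), per the file headers. The authors deposited linear spot intensity, and its processed form is already background-subtracted. The authors' deposited value table holds log2 values. Each of 280152 values equalled the log2 of the background-subtracted signal within 5e-09, cells being empty where that was 0 or less. So it has no scaling between arrays, and scale, centring and direction are known.

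The log2 processed signal of 43803 spots that are not controls was taken minus each array's 75th percentile. Flagged spots were left out unless all spots of a probe were flagged. Spots were averaged per probe, and kept probes per sequence. A probe counted as well above background where at least 50% of its spots were. No spot was saturated (0). Limma 3.58.1 in R 4.3.3 (lmFit, eBayes, 11.2 total degrees of freedom) compared 6 exposed with 3 control pools, with Benjamini-Hochberg adjustment over 5065 sequences. The scripts were tested on simulated data. The number of arrays limits precision.

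Pool numbers coincide with the 3 slides per the file headers. Deviations from group means of same-numbered pools correlated at a median r of -0.05 (from -0.16 to 0.14, 9 pairs). The members, named sequences and tests were chosen with earlier results of these data known. Gene lists could not be applied, as 0 sequence names matched RefSeq (assembly fSpaAur1.1). Named sequences follow the rule given in the text, at most 2 higher and 2 lower, and 2 probes by detection. Normexp used the median spot signal.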

Additional observations from a re-analysis of the deposited data

Results flagged for a closer look

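Among the 6 exposed pools, the clone cDN02P0003F20.F.ab1 stood apart in 1 pool. Its level in pool 3 at 0.5 µg/L was 2.24, and the other 5 exposed pools lay at or below 1.68. The gap to the nearest pool was 0.756 of the whole range, above Dixon's 95% critical value for 6 values. Chance alone passes that value in about 5% of unselected groups, and 8 sets of values were examined. This clone was picked because its exposed pools all lay above the controls, so that rate does not hold for it.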

How the results depend on the processing

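Limma's 0 called sequences held in 29 of 32 alternatives, the replicate block as a fixed term (0, smallest adjusted p 0.508), as a random term (0) and with concentrations kept apart (0) among them. An unadjusted p under 0.01 with 1.5-fold passed 41 of 5065, and the pools at 50 µg/L alone against controls gave 1. Leaving out each pool gave 0 to 1, with the probes kept anew each time. The 90 sequences with separated groups became 59 with median centring, 33 with normexp, 32 with spike-in scaling, 50 with the authors' deposited values, 53 with probes measured on all 9 arrays, 32 with sequences of 2 or more probes, 165 with probes as the unit and 195 with all probes. Leaving out each pool gave 123 to 390, with fewer pools to separate and the probes kept anew each time. The 16 probes detected in controls only became 133 when 1 exposed array could be well above background. Leaving out each pool gave 16 to 108. The 0 detected in exposed pools only became 1 when 1 exposed array could fall short, and 0 to 4 on leaving out each pool. The 4 named sequences kept their sign and stayed uncalled in each alternative run for them (26 or 27 a sequence). How they were picked favours a kept sign, above all on leaving out a pool. The 190 of 5065 sequences at an unadjusted p under 0.05 became 84 of 5065 with spike-in scaling and 805 of 15156 with all probes. A fit of only the sequences with 2 or more kept probes had 73 of 2240. With array weights there were 412, and 0 called (smallest adjusted p 0.097). No other cause of these shifts was tested. Dim probes, 2213 of them kept through controls only, limit what can be read of low transcripts.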
